A study of Mus musculus with 4 samples.

Results

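The 10 T-box genes T (which encodes Brachyury), Eomes, Tbx1, Tbx2, Tbx4, Tbx5, Tbx6, Tbx15, Tbx18 and Tbx20 were examined for peaks of Dzip3, Ring1B and ubH2A in mES cells. They were taken as a named list by a rule that uses no measured value, though with earlier results of these data known, and are 10 of the 22380 protein-coding genes of the GENCODE annotation of mm9. For each gene, all peaks within 100 kb of an annotated TSS were collected from the 4 deposited lists, with the reads of every library in them. The cells were E14 mES cells of strain 129/Ola, 1 established line without any knockdown, grown without feeders in N2B27 medium with PD0325901 at 1 μM, CHIR99021 at 3 μM (together 2i) and LIF at 1000 U/ml. They were fixed in 1% formaldehyde for 10 min, and 1 library was made from input DNA and 1 from each ChIP, against ubH2A, Ring1B and Dzip3. There are no replicates, so no difference between libraries was tested, and the 95% intervals given below cover counting error only. For fragmentation the sample labels name a Picoruptor, whereas the methods of the study name micrococcal nuclease. The libraries held between 48.3 M reads (input DNA) and 67.0 M reads (ubH2A), as implied by the listed RPM, which are reads per M reads of the library. These sizes are above the depth that the methods state for uniquely mapped reads.

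T-box proteins bind DNA through a shared domain and switch on, or in some cases off, the genes of mesoderm, endoderm, heart and limb as these tissues form. T and Eomes act earliest, at the primitive streak, and most of the other members act later in organs that derive from mesoderm. In mES cells such genes are typical targets of Polycomb repressive complex 1, whose catalytic subunit Ring1B (Rnf2) attaches a single ubiquitin to histone H2A to give ubH2A. The complex tends to occupy GC-rich promoters with many CpG dinucleotides. Dzip3 is a different ubiquitin ligase that can also act on H2A. The peak lists hold no expression, so whether the T-box genes were on or off in these cells, and whether the cells had the markers of pluripotent cells, cannot be read from them.

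Stretches of DNA from 6 places show what the peaks of these genes are made of, with each CpG in capitals. The first 3 lie in or are Ring1B peaks upstream of T, Eomes and Tbx5 and are shown as examples of CpG-rich sequence with Ring1B. The Tbx15 and Tbx18 peaks are the strongest Dzip3 peaks near these genes and lie far from a TSS. The last is the 250 bases before the TSS of Tbx6, the one member without a Ring1B peak. All are from the mm9 assembly (NCBIM37), at chr17:8626437-8626736 (plus strand), chr9:118386745-118386989 (plus), chr5:120281399-120281654 (plus), chr3:99162511-99162790 (plus), chr9:87566297-87566543 (minus) and chr7:133924747-133924996 (plus), in this order.
T Ring1B peak centre: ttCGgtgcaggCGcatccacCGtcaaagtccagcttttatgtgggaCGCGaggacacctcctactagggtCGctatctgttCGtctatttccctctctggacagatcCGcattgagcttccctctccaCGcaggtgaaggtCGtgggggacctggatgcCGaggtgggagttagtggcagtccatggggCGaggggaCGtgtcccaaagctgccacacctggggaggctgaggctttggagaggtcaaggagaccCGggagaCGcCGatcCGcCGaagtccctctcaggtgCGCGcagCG
Eomes Ring1B peak: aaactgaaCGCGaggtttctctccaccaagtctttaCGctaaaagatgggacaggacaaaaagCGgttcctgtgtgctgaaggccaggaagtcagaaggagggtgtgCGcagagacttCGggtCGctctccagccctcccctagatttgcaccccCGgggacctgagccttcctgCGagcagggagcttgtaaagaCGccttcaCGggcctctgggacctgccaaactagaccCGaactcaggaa
Tbx5 Ring1B peak: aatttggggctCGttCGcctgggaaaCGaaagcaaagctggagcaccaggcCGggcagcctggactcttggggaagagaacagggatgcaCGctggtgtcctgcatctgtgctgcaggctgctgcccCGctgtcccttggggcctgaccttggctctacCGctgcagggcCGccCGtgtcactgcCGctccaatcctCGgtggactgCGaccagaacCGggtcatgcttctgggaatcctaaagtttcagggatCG
Tbx15 distal Dzip3 peak: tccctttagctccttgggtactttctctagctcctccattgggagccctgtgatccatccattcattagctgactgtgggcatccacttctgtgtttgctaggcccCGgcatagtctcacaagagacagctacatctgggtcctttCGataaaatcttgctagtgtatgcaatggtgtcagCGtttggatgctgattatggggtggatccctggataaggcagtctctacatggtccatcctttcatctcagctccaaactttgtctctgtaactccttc
Tbx18 distal Dzip3 peak: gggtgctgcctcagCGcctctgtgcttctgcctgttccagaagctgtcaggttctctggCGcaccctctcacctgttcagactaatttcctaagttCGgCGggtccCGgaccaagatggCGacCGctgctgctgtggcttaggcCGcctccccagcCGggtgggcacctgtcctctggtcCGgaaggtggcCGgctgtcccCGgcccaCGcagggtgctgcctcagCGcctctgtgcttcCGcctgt
Tbx6 before the TSS: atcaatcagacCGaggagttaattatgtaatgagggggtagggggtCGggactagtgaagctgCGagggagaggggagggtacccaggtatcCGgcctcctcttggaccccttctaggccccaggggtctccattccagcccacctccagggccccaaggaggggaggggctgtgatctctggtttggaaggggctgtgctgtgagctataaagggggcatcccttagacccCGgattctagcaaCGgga

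The window from the T peak holds 21 CpGs in 300 bases, the Eomes peak 12 in 245 bases and the Tbx5 peak 14 in 256 bases. The Tbx15 distal peak holds 3 CpGs in 280 bases, the lowest number of the 6. The Tbx18 distal peak holds 15 in 247 bases, and a 28-base word that opens it occurs a second time from base 213. The stretch before the Tbx6 TSS holds 6 CpGs in 250 bases.

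Ring1B lay at the promoters of 9 of the 10 genes, and neither Dzip3 nor ubH2A formed a peak there. A Ring1B peak was found within 4 kb of a TSS of every member other than Tbx6, which is 90% of the list (95% exact interval 55.5% to 99.7%), against 10.0% of all protein-coding genes. The same 9 genes had one within 10 kb (14.2% of all genes) and within 100 kb (50.3% of all genes). In 4 genes, Tbx1, Tbx2, Tbx4 and Tbx20, a Ring1B peak lay over a TSS itself. No member had a Dzip3 peak within 4 kb or within 10 kb, where 3.13% and 6.37% of all genes had one. Within 100 kb a Dzip3 peak was found for Tbx1, Tbx5, Tbx15 and Tbx18, which is 40% of the list against 36.4% of all genes and so close to the background. The ubH2A and input lists could be used for 8 members, because a broken row in each hides the part of chromosome 11 with Tbx2 and Tbx4. For these 2 lists, the shares of all genes are likewise over genes on chromosomes with complete lists, 18444 for ubH2A and 17740 for input. Of these 8 genes, 7 had a ubH2A peak within 100 kb (87.5%, 47.3% to 99.7%, against 39.1% of all genes), and none had one within 10 kb (6.79%) or 4 kb (3.35%). None of the 8 had an input peak within 100 kb (21.1%), 10 kb (3.03%) or 4 kb (1.35%). With 10 genes or fewer, a count of 0 is still within counting error of a background of a few percent, as the upper limit of the interval is 30.8% for 0 of 10.

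In total, 53 Ring1B, 5 Dzip3 and 8 ubH2A peaks lay within 100 kb of a TSS of these genes, where the ubH2A count leaves out Tbx2 and Tbx4. Of the Ring1B peaks, 33 lay within 4 kb and 20 farther away. The 13 Ring1B peaks near Tbx2 are also the 13 near Tbx4, since the genes are neighbours, so that 53 peaks make 66 pairs of a gene and a peak.

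**Figure D1:**
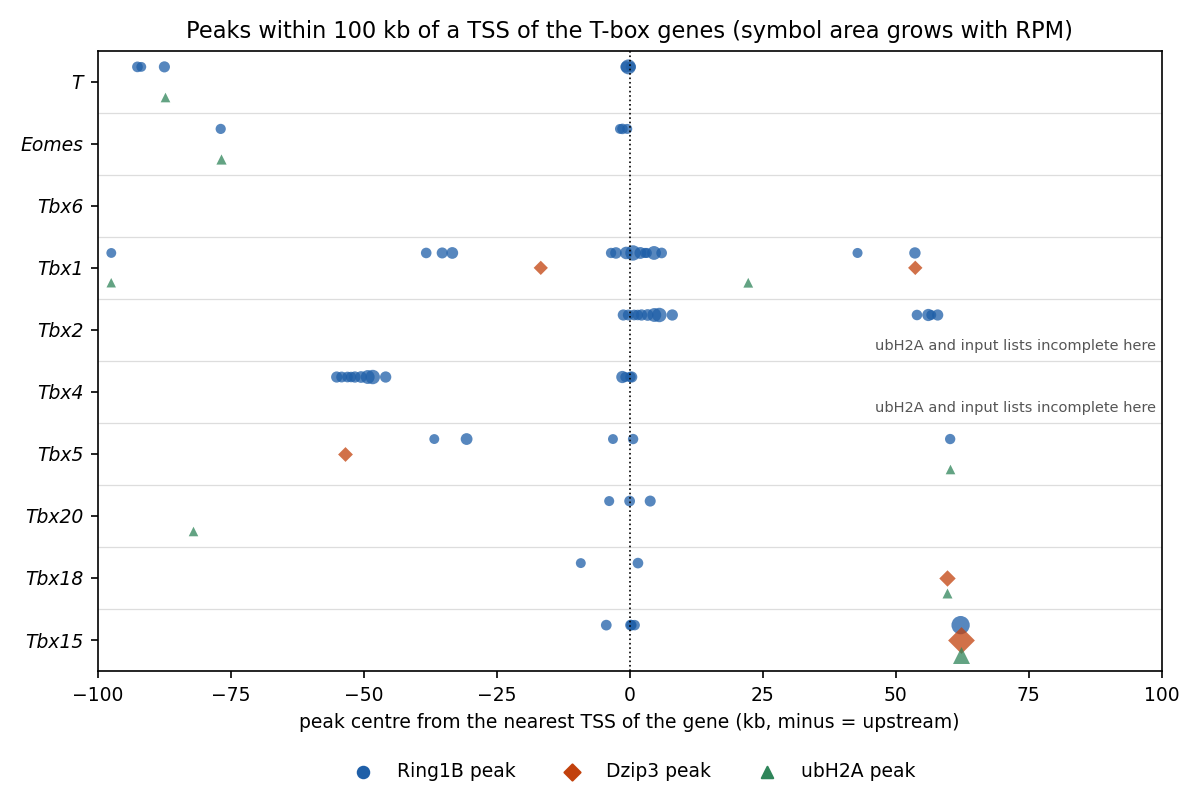
Positions of the Ring1B, Dzip3 and ubH2A peaks of each T-box gene. The x axis gives the distance of the peak centre from the nearest TSS of the gene in kb, and the y axis the genes. Symbol area grows with the listed RPM. No input peak was found for the 8 genes with complete lists, and the ubH2A and input lists could not be used for Tbx2 and Tbx4. Ring1B peaks gather at 0 in every gene but Tbx6, which has no symbol at all, while each Dzip3 and ubH2A symbol lies more than 10 kb away, and the 13 Ring1B peaks of Tbx2 and Tbx4 are the same peaks drawn from either gene.

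T is required for the notochord and posterior mesoderm and lies on chr17:8627288-8635361 (ENSMUSG00000062327.3, plus strand). Its strongest Ring1B peak, at chr17:8627303-8627780 in an exon and 10 bp from a TSS, held 345 Ring1B, 17 Dzip3, 24 ubH2A reads and 1 input read. The peak reached 2.67 RPM, and its scaled Ring1B reads were 20.9 times those of Dzip3 (95% interval 12.9 to 36.3). A second peak upstream, at chr17:8626286-8626886, held 227 Ring1B reads against 25 of Dzip3, 28 of ubH2A and 6 of input, and the first stretch printed above is its centre. The third, at chr17:8627887-8628114, was weaker, with 88 Ring1B, 7 Dzip3 and 20 ubH2A reads and 0 input reads. In each of them Ring1B was by far the highest of the 4 libraries. The nearest Dzip3 peak was 182.6 kb from T and the nearest ubH2A peak 87.3 kb away, in an intron of Sft2d1.

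Eomes, needed for definitive endoderm and trophoblast, lies on chr9:118387330-118395250 (ENSMUSG00000032446.8, plus strand). Of its 4 Ring1B peaks, 3 lay between 0.341 and 1.735 kb upstream and overlapped no annotated gene, and the fourth lay 76.8 kb away. The strongest, at chr9:118385690-118386245, held 185 Ring1B, 21 Dzip3, 14 ubH2A and 4 input reads. The one nearest the TSS, the Eomes stretch printed above, held 85 Ring1B reads and 10 ubH2A reads, and 0 reads of either Dzip3 or input DNA. With Dzip3 set to a floor of 3 reads this peak had at least 29.2-fold more scaled Ring1B than Dzip3 reads (exact 95% lower limit 23.2). The nearest Dzip3 peak was 115.4 kb from the gene.

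Tbx6, which directs cells to paraxial mesoderm, stood apart. It lies on chr7:133924997-133929074 (ENSMUSG00000030699.10, plus strand), and none of the lists held a peak inside its window of 100 kb. The nearest Ring1B peak was 438.3 kb away, the nearest Dzip3 peak 404.0 kb, the nearest ubH2A peak 311.6 kb and the nearest input peak 1968.9 kb. The files give reads only inside listed peaks, so the reads of the libraries at the Tbx6 promoter are not known. The 1001 bp centred on its TSS held 2.90 CpGs per 100 bases, below the median of 3.996 for all genes. Tbx15 with 2.60 and Tbx5 with 0.799, both with Ring1B peaks within 4 kb, had fewer, and Tbx2 with 9.39 and T with 6.49 had the most. These are values of 1 window for each gene, at 1 of the TSSs where a gene has several. The median was 5.89 for the 2238 genes with a Ring1B peak within 4 kb and 3.70 for those without.

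Tbx1, a gene of the pharyngeal arches and the outflow tract of the heart, carried the most Ring1B. It lies on chr16:18581806-18588113 (ENSMUSG00000009097.8, minus strand) and had 8 Ring1B peaks within 4 kb, which covered 6555 bp of that window. Only 20 protein-coding genes (0.0894%) had at least as much, this gene included. The genes outside the lists used here with the most similar length were Hoxa9 with 6709 bp, Skor1 with 6392 bp and Hoxa7 with 6372 bp. The strongest Tbx1 peak, at chr16:18585763-18587131, lay over a TSS and held 760 Ring1B, 66 Dzip3, 58 ubH2A and 21 input reads. The longest, at chr16:18581297-18583680, spanned 2383 bp around the 3′ end of the gene and held 1207 Ring1B reads against 133 of Dzip3, 98 of ubH2A and 12 of input.

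Tbx2, a repressor that acts in the atrioventricular canal, and Tbx4, a gene of hindlimb and lung mesenchyme, lie side by side on chr11:85646053-85655450 (ENSMUSG00000000093.6) and chr11:85699924-85729599 (ENSMUSG00000000094.6), both on the plus strand. Of their 13 shared Ring1B peaks, 6 lay within 4 kb of the Tbx2 TSS and 4 within 4 kb of a Tbx4 TSS. The remaining 3 lay 4.230 to 7.573 kb from the Tbx2 TSS over exons of the gene, and they included the strongest of the pair at chr11:85651102-85652158, with 718 Ring1B, 42 Dzip3, 61 ubH2A and 11 input reads. The strongest Ring1B peak of Tbx4 within 4 kb, at chr11:85701861-85702506, held 318 Ring1B, 20 Dzip3, 50 ubH2A and 6 input reads. Between the genes, from chr11:85654489 to chr11:85699883, there was no Ring1B peak. The listed percentages gave no overlap with a Dzip3, ubH2A or input peak for any of the 13.

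Among the genes of the heart, Tbx20 (chr9:24527648-24578746, ENSMUSG00000031965.7, minus strand) had a peak over its TSS with 149 Ring1B, 34 Dzip3, 8 ubH2A and 2 input reads. Its strongest, 3.637 kb into the gene, held 161, 22, 21 and 7 reads in the same order. Tbx5 (chr5:120284672-120335227, ENSMUSG00000018263.8, plus strand), which is needed for heart and forelimb, had 2 peaks within 4 kb with 103 and 71 Ring1B reads. Its strongest Ring1B peak lay not there but 30.4 kb upstream, at chr5:120253770-120254268, with 198 Ring1B reads and only 5 of Dzip3, 38 of ubH2A and 3 of input. That peak held 9.04 CpGs per 100 bases, against 0.799 around the Tbx5 TSS.

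Tbx18 (chr9:87597635-87626095, ENSMUSG00000032419.7, minus strand), a gene of the epicardium and the sinus node, had 1 Ring1B peak within 4 kb. It lay in an exon, 1.355 kb inside the gene, and held 130 Ring1B, 52 Dzip3 and 16 ubH2A reads and 0 input reads. Tbx15 (chr3:99044304-99158182, ENSMUSG00000027868.5, plus strand), which shapes skeleton and skin, had 3 Ring1B peaks within 4 kb, near more than 1 of its TSSs. The longest held 267 Ring1B, 46 Dzip3, 38 ubH2A and 13 input reads, and the other two held 94 and 136 Ring1B reads.

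The length of Ring1B peaks within 4 kb of a TSS followed no single level across the list. The window takes in 4 kb around every TSS of a gene, so genes with several TSSs can be searched over more bases. Eomes, Tbx4 and Tbx15 had 3 TSSs, T and Tbx1 had 2, and the other members had 1. After Tbx1 came Tbx2 with 2568 bp, Tbx4 with 2554 bp, Tbx15 with 1574 bp, T with 1304 bp, Tbx20 with 1106 bp, Eomes with 1000 bp, Tbx5 with 611 bp and Tbx18 with 396 bp. Tbx2 and Tbx4 differed by 14 bp, and no error can be given for a length from 1 library. The median over the 10 genes was 1205 bp, against 388 bp over the 2238 protein-coding genes that have any. Of the other T-box genes, Tbx10, Tbx21, Tbr1 and Mga had a Ring1B peak within 4 kb and Tbx3, Tbx19 and Tbx22 had none, so that 4 of 7 genes had one and the median was 200 bp. In a list of 22 regulators that act with T-box factors in mesoderm and endoderm, 17 genes had a Ring1B peak within 4 kb, all but Mesp2, Msgn1, Isl1, Fgf10 and Nodal, and the median was 941 bp. Among 7 pluripotency genes only Esrrb had one, and the median was 0 bp. Within 4 kb none of the 7 other T-box genes, 22 regulators or 7 pluripotency genes had a Dzip3 peak, against 3.13% of all genes. With so few genes, 0 is within counting error of that share (upper limits 41.0%, 15.4% and 41.0%). Within 10 kb only Nanog and Klf2 of these lists had one, against 6.37% of all genes. A ubH2A peak within 100 kb was not particular to the members. On chromosomes with complete lists, 4 of 5 other T-box genes, 8 of 16 regulators and 6 of 7 pluripotency genes had one.

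**Figure D2:**
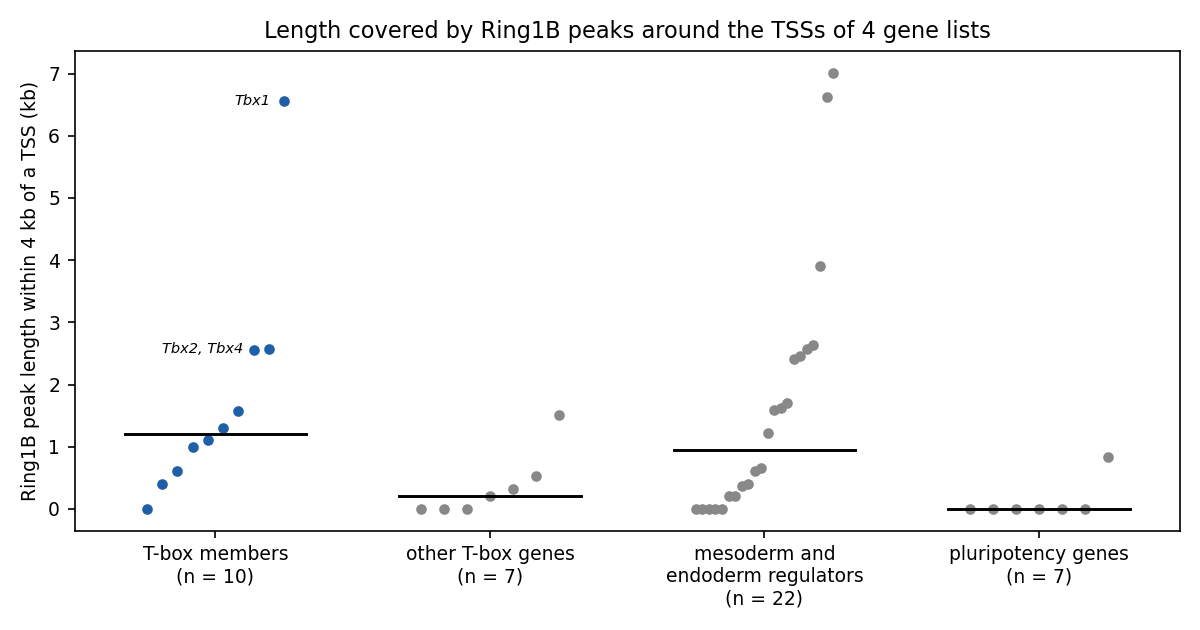
Length covered by Ring1B peaks within 4 kb of a TSS (y axis, kb) for each gene of 4 lists (x axis), with 1 point for each gene and a bar at the median. The T-box members range from 0 to 6555 bp around a median of 1205 bp and overlap widely with the 22 regulators (median 941 bp), while 6 of the 7 pluripotency genes lie at 0.

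The reads show how the libraries compared inside these Ring1B peaks, which were selected on Ring1B reads, so that a Ring1B excess is partly given by the choice. Summed over the peaks within 4 kb, Ring1B reached 9.78 RPM per kb in T, 8.47 in Tbx1 and between 5.50 and 7.11 in the other 7 genes with a peak. Dzip3 ranged more widely, from 0.526 in Eomes to 2.46 in Tbx18, and ubH2A from 0.433 in Eomes to 0.958 in Tbx2. Input DNA lay between 0.111 in T and 0.281 in Tbx20 where it had reads, and at 0 reads in Tbx18. Dzip3 was above input DNA in each of the 9 genes, by 2.54 times in Eomes (28 against 10 reads, 1.20 to 5.86) up to 6.46 times in Tbx5 (57 against 8 reads, 3.07 to 15.7), and in Tbx18 52 reads stood against 0. For ubH2A the ratio to input DNA was lowest in Eomes at 2.09 (0.990 to 4.81), where the interval includes 1, and highest in T at 7.41 (3.42 to 19.1). The peaks were called on Ring1B, so few input reads are also partly given by the choice. With 1 read added, the median ratio of Dzip3 to input DNA was 4.45 over the 33 peaks and 4.76 over all 3723 Ring1B peaks within 4 kb of a protein-coding TSS, and that of ubH2A was 5.49 and 4.32. At the strongest Ring1B peak within 4 kb the median ratio of Ring1B to input DNA over the 9 genes was 42.5. Taken within 100 kb it was 55.9, or 51.2 with the peak that Tbx2 and Tbx4 share counted once, but for Tbx4, Tbx5 and Tbx15 that peak lies 47.8, 30.4 and 62.0 kb from a TSS. With input DNA set to no less than 3 reads the value over the 9 genes was 60.9. Tbx18, with 130 reads against 0, had at least 40.4-fold more by that floor (exact 95% lower limit 32.4).

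**Figure D3:**
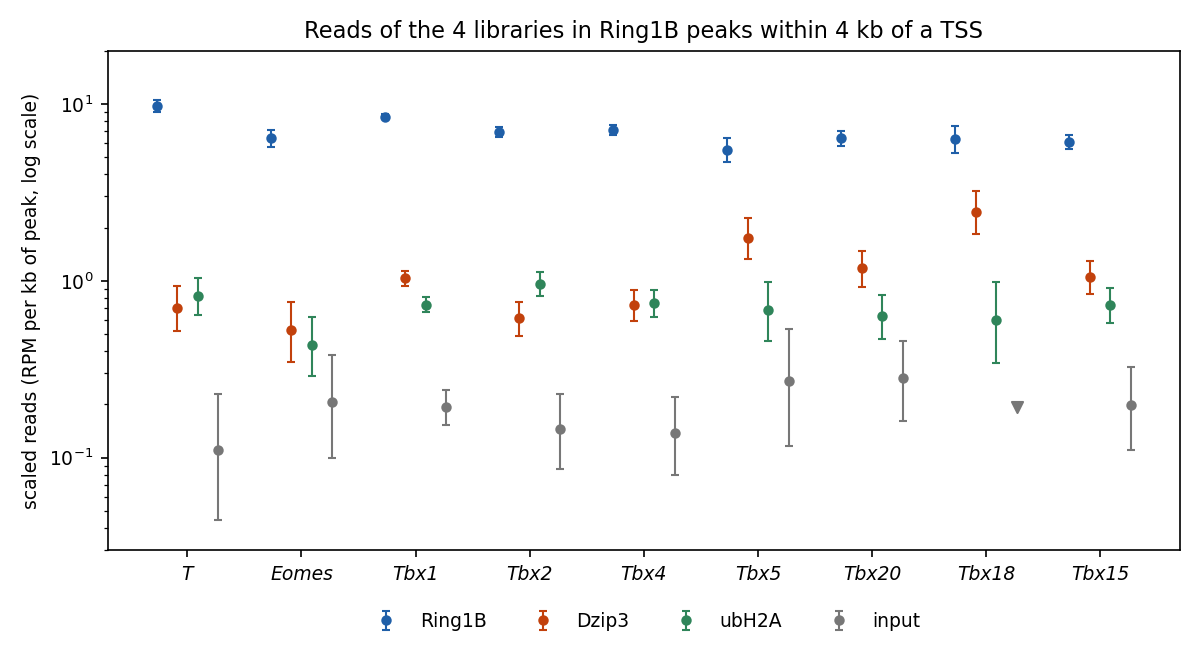
Scaled reads in RPM per kb of peak (y axis, log scale) of the 4 libraries, summed over the Ring1B peaks within 4 kb of a TSS of each gene (x axis), with exact 95% Poisson intervals. The triangle for Tbx18 marks the upper limit for 0 input reads. Ring1B lies between 5.50 and 9.78 in all 9 genes, Dzip3 moves from 0.526 in Eomes to 2.46 in Tbx18, and input DNA is lowest of the 4 throughout.

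The balance of Ring1B and Dzip3 varied over the genes. The ratio of scaled Ring1B to Dzip3 reads was 13.9 in T (660 against 49 reads, 10.4 to 18.9), 12.2 in Eomes (332 against 28, 8.29 to 18.6), 11.3 in Tbx2 (924 against 84, 9.05 to 14.3), 9.77 in Tbx4 (940 against 99, 7.94 to 12.1) and 8.22 in Tbx1 (3649 against 457, 7.45 to 9.08). It was 5.81 in Tbx15 (497 against 88, 4.63 to 7.38), 5.42 in Tbx20 (390 against 74, 4.22 to 7.05), 3.14 in Tbx5 (174 against 57, 2.32 to 4.32) and 2.57 in Tbx18 (130 against 52, 1.85 to 3.62). In this order the intervals of neighbours overlap for every pair except Tbx1 and Tbx15, where they are separated by 7.45 against 7.38 only. The ratio of Ring1B to ubH2A was more even, from 7.25 in Tbx2 (6.14 to 8.61) to 14.8 in Eomes (10.1 to 22.5), and it put the genes in another order. Tbx18 and Tbx5, lowest against Dzip3, stood at 10.5 (6.24 to 19.0) and 8.05 (5.38 to 12.5) against ubH2A. Dzip3 against ubH2A ran from 0.641 in Tbx2 (0.487 to 0.838) to 4.09 in Tbx18 (2.30 to 7.67). How far these differences between genes exceed the spread between ChIP replicates is not known.

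Compared with Ring1B peaks in general, those at the T-box promoters had a higher median of Ring1B over Dzip3 reads. With 1 read added, the median ratio of Ring1B to Dzip3 was 8.10 over the 33 peaks (range 2.43 to 88.5) and 5.15 over the 3723 Ring1B peaks within 4 kb of any protein-coding TSS, and the ratio to ubH2A was 8.98 and 5.84. The largest value, 88.5, is the Eomes peak with 0 Dzip3 reads. The 33 peaks are not independent, as Tbx1, Tbx2 and Tbx4 hold 8, 6 and 4 of them. Not every gene was above 5.15. Summed by gene as above, without the added read, Tbx18 had 2.57 and Tbx5 3.14, while Tbx20 with 5.42 and Tbx15 with 5.81 were close to it. None of the 33 peaks overlapped a Dzip3, ubH2A or input peak (exact 95% upper limit 10.6%). Of the 3723 peaks 10.2%, 11.3% and 6.34% did, and for 33 peaks that gather at 9 genes, 0 is within or close to counting error of these shares. GC content was alike, with medians of 59.6% and 61.5%, and so was the number of CpGs, 5.26 and 5.98 per 100 bases. To see how much of a peak is sequence found elsewhere, its 31-base words were counted in the mm9 chromosomes on both strands. The median share of words that occur more than once was 0% for both classes, but the mean was 0.460% over the T-box peaks and 12.9% over the 3721 of the 3723 peaks that are no longer than 10 kb and lie within the chromosome.

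The 20 Ring1B peaks 4 to 100 kb away were mixed. Over them the median ratio of Ring1B to Dzip3 was 2.79 and to ubH2A 5.94, against 1.70 and 2.07 for all 4872 Ring1B peaks at this distance from their nearest TSS. Of the 20, 5 lay within 4 kb of the TSS of another gene, namely Prr18 upstream of T (2 peaks) and Gp1bb or Sept5 upstream of Tbx1 (3 peaks), and 6 lay within 10 kb of the T-box gene. The 4872 hold no peak within 4 kb of a protein-coding TSS, so the medians above and the shares below compare unlike sets. A ubH2A peak overlapped 5 of the 20, in T at 87.3 kb, Eomes at 76.8 kb, Tbx1 at 97.3 kb, Tbx5 at 60.04 kb and Tbx15 at 62.0 kb. This is 25.0% of the peaks (8.66% to 49.1%), against 43.9% of all 4872, and a Dzip3 peak overlapped 2 of the 20 (10.0%, 1.23% to 31.7%), against 41.8%. The choice of these 5 rests on the ubH2A reads, but their Dzip3 reads and sequence were not used for it. Their ratio of Ring1B to Dzip3 lay between 0.916 and 1.71, against a median of 3.39 (1.54 to 34.1) in the 15 without a ubH2A peak. They held 0 to 0.935 CpGs per 100 bases, against a median of 4.98 in the 15 (0 to 9.13), a range that takes in theirs. The median share of repeated 31-base words was 68.7% in the 5 (0% to 97.3%) and 0% in the 15 (0% to 44.0%), so that the ranges overlap. The 5 all lay 60.04 kb or more from the T-box gene. The 15 included all 6 peaks within 10 kb of the T-box gene and all 5 near the TSS of another gene. These groups therefore also differ in distance from a TSS, and the part of that distance was not tested. Over all 4872 Ring1B peaks the ratio to Dzip3 differed in the same direction, with a median of 1.12 with a ubH2A peak and 2.65 without one. Of those with a ubH2A peak, however, 46.8% overlapped an input peak, against 2.38% of those without, while 0 of the 20 did.

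**Figure D4:**
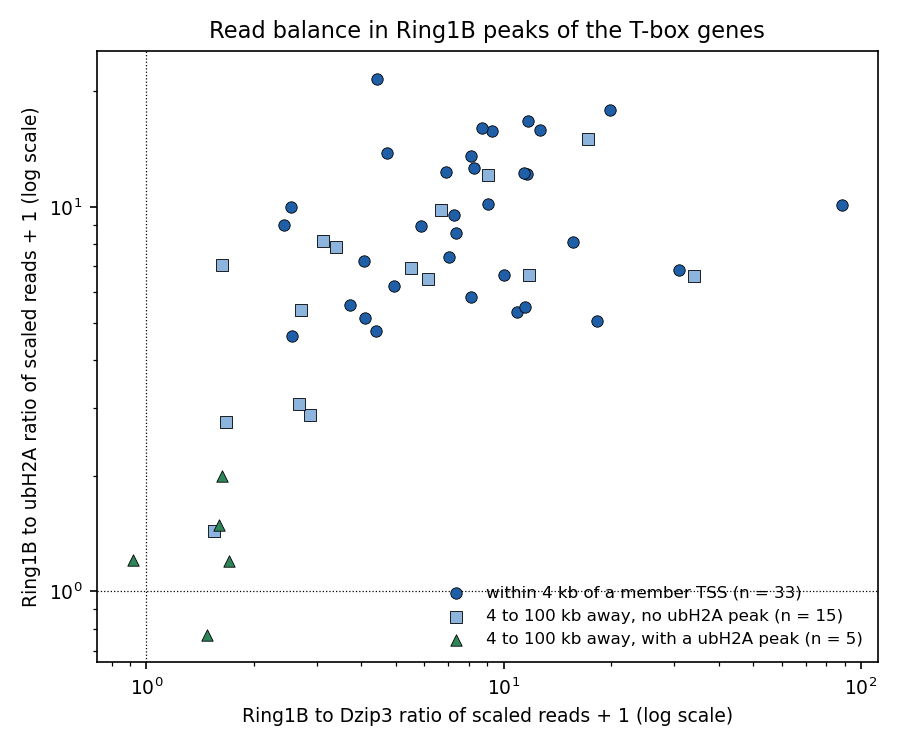
Ratio of scaled Ring1B to Dzip3 reads (x axis) and to ubH2A reads (y axis), with 1 read added and both axes on a log scale, for the 53 Ring1B peaks of the T-box genes. The 5 peaks with a ubH2A peak lie at the lower left, below 1.71 on the x axis. Over the 33 peaks within 4 kb of a TSS the lowest values are 2.43 on the x axis and 4.62 on the y axis.

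The strongest peak of any list near these genes was shared by all 3 ChIP libraries. It lies in intergenic sequence 62.0 kb from the nearest Tbx15 TSS, at chr3:99162467-99162788 in the Ring1B list, chr3:99162510-99162790 in the Dzip3 list and chr3:99162569-99162779 in the ubH2A list. The Dzip3 peak held 524 Dzip3, 467 Ring1B and 501 ubH2A reads against 4 of input DNA and reached 4.90 RPM. Of its 31-base words, 96.8% occurred more than once in the chromosomes, and the median word occurred 10902 times. The Tbx18 peak, 59.6 kb from the TSS at chr9:87566296-87566543, held 130 Dzip3, 70 Ring1B, 91 ubH2A and 4 input reads and was a peak in the Dzip3 and ubH2A lists. There 100% of the words were repeated, and the median word occurred 2200 times. The methods state the depth in uniquely mapped reads. Whether reads with several matches entered the lists is not given in the sources used here, and the part of repeated sequence in these peaks was not tested.

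The other 3 Dzip3 peaks were weaker. At 53.3 kb upstream of Tbx5, chr5:120231046-120231344 held 88 Dzip3, 25 Ring1B, 79 ubH2A and 5 input reads. At 16.6 kb upstream of Tbx1, in an intron of 4930588K23Rik, chr16:18604711-18604940 held 70 Dzip3, 8 Ring1B, 44 ubH2A and 7 input reads. In both places Ring1B was the lowest of the ChIP libraries, which follows in part from their being listed for Dzip3 and not for Ring1B. At 53.6 kb from Tbx1, in an intron of Gnb1l, chr16:18533279-18533497 held 38 Dzip3, 59 Ring1B, 23 ubH2A and 4 input reads and overlapped a Ring1B peak. Of the 8 ubH2A peaks, 2 overlapped neither a Ring1B nor a Dzip3 peak. The one 22.1 kb from Tbx1, over an exon of Gnb1l at chr16:18564643-18564915, held 78 ubH2A, 18 Ring1B, 2 Dzip3 and 4 input reads. The one 82.0 kb upstream of Tbx20, at chr9:24660721-24660990, held 74, 43, 13 and 3 reads in the same order.

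The T-box consensus half-site GGTGTGA, or TCACACC on the other strand, was looked for in the central 300 bases of each Ring1B peak. It was found in 2 of the 53 peaks of the T-box genes (3.77%) and in 513 of all 10119 Ring1B peaks (5.07%).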

How the data were processed

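ChIP-seq was made by the authors from E14 mES cells, with 1 library each for 3 ChIP targets and input DNA. The authors aligned reads to mm9 with the Illumina pipeline, allowing 1 mismatch, and made a list of peaks for each library in the Partek Genomics Suite, with 0.1 as the FDR limit. The deposited lists give counts of reads of all 4 libraries per peak, which the authors did not scale, and the peak height as RPM, which the authors scaled to library size. The authors also deposited p-values and a scaled ratio (fold) against input DNA, and per peak the percent of its length that peaks of other libraries cover. The p-values were not used here.

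Library sizes were height in reads divided by RPM. Rows without 18 columns were left out, 1 each in the ubH2A and input lists. The peaks hidden by them (ubH2A from chromosome 1 to 11, input from chromosome 1 to 12 in the order of the file) were not analysed here, and overlaps came from the listed percentages for Tbx2 and Tbx4. Distances ran from the nearest edge of a peak to any TSS of a gene in the GENCODE annotation of mm9, and overlap meant at least 1 bp. Reads have exact Poisson intervals, and ratios of scaled reads and shares have exact binomial ones, at 95%. No test was made with 1 library for each target. Ratios for classes of peaks used a pseudocount of 1 read, and bounds against 0 reads used a floor of 3 reads.

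All 10 members were named, with the nearest and the highest peak of each list within 100 kb. The other peaks named were chosen after their values were seen. The members and lists were chosen with earlier results of these data known. Of 8 pluripotency genes 7 matched the annotation. A further list of genes is not reported here. Words of 31 bases were counted by a choice made after the peaks were seen. The distance matching was tested on simulated data, where all 123 peaks planted within 100 kb among 22380 genes were found. Python 3.11.15 was used with pysam 0.24.0, numba 0.67.0, scipy 1.17.1, matplotlib 3.10.9, pandas 2.3.3 and numpy 2.4.6.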

Additional observations from a re-analysis of the deposited data

How the results depend on the processing

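Under the alternatives 63 values stayed within 1.5 times the reported count or within the counting interval, and 13 moved. Many of the 63 are counts of 0, namely all input counts and the Dzip3 and ubH2A counts within 4 kb. Most alternatives only remove or merge peaks or genes and could not change a 0, so the tally does not measure stability. Shortening the distance to 10 kb left 0 genes and 0 peaks for both Dzip3 and ubH2A, and at 50 kb 1 gene was left for each of them. The stronger 50% of the lists gave 3 Dzip3 peaks, 3 ubH2A peaks and 3 genes with a ubH2A peak. Counting a peak only for its nearest gene gave 3 Dzip3 peaks and 5 ubH2A peaks. Requiring a peak over a TSS left 4 genes with Ring1B, and merging Ring1B peaks under 500 bp apart left 35 peaks. The count of genes with a Ring1B peak within 100 kb lay between 7 and 9, the 7 coming from the chromosomes with complete lists, where 8 of the 10 members lie. The median ratio of Ring1B to input DNA at the strongest peak ranged from 41.4 to 59.9 (51.2 with each peak counted once, an alternative chosen after seeing the data), and the median Ring1B length from 952.5 to 1119 bp. No paired analysis was possible because each ChIP was made once and no replicate numbers can be matched. Differences between libraries have no replicate check, and genes with few input reads have wide ratios.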
